A study of Mus musculus with 24 samples.

Results

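The 24 arrays of this experiment repeated in groups of 8 when their expression values were read in the deposited order, and the comparison described here is between the second and the third pair of arrays in that repeat. Each array was given a set number from 1 to 8, its position in the order counted again from 1 after every 8 columns. Array sets 3 and 4 (columns 3, 4, 11, 12, 19 and 20) were set against array sets 5 and 6 (columns 5, 6, 13, 14, 21 and 22). These are 12 of the 24 arrays, 6 against 6, and each set holds 3 arrays. The repeat was seen in the array values themselves, so the sets were chosen from the measurements and every gene had a part in the choice. The differences between the sets are therefore given as a description, with no test. Whether they stand for flow or time cannot be told, because the labels of the arrays follow another order than the repeat of 8.

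All arrays hold RNA of MLO-Y4 cells, one line of mouse cells that resemble osteocytes, the cells embedded in bone matrix that sense mechanical load. The labels give flow and sham at 0, 2, 8 and 24 h after the treatment, with 3 arrays each. Flow lasted 2 h at 10 dyn/cm2 and 1 Hz, and sham cells were kept in static chambers. Whether arrays with the same label were grown as separate cultures is stated neither in the paper nor in the labels. The p-values given for the labels therefore measure only how much these samples spread, and that spread may be technical. Set 3 holds the arrays labelled sham 0 h replicate 3, flow 2 h replicate 2 and sham 24 h replicate 1. Set 4 holds flow 0 h replicate 1, flow 2 h replicate 3 and sham 24 h replicate 2. Set 5 holds flow 0 h replicate 2, sham 8 h replicate 1 and sham 24 h replicate 3, and set 6 holds flow 0 h replicate 3, sham 8 h replicate 2 and flow 24 h replicate 1. Each pair of sets thus has 3 flow and 3 sham arrays by label. The labels flow 0 h and sham 24 h occur in both pairs of sets. Labels 2 h and 8 h each occur in one pair only.

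Single genes tied to NF-kB, among them the chemokine genes Cxcl1 and Ccl2, the receptor gene Tlr2 and the inhibitor gene Nfkbia, lay lower in sets 5 and 6 than in sets 3 and 4. They were picked for their differences, and most members of the chemokine, receptor and NF-kB lists overlapped between the pairs of sets. Lower too were most genes of cholesterol synthesis, while many genes of G2 and mitosis lay slightly higher. NF-kB is a family of transcription factors held in the cytoplasm by inhibitor proteins. Signals from Toll-like receptors and cytokine receptors release it, and it then switches on chemokine genes and the genes of its own inhibitors, which end the response. Cholesterol is built from acetyl-CoA by a chain of enzymes whose genes share the transcription factor SREBP-2, which is kept inactive in the endoplasmic reticulum while sterols are plentiful. In bone, the chemokine CCL2 draws precursors of osteoclasts, the cells that resorb bone.

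As a description of likeness, Pearson's r was taken between arrays over the 12393 genes, on the deviation of each array from the gene's mean over all arrays. All arrays share a platform and a normalization, and the genes are not independent. Over the 12 pairs of arrays of the same set, r ran from 0.07 to 0.40 with a median of 0.24. Over the 18 pairs of arrays from both sets of the same pair, it ran from -0.03 to 0.60 with a median of 0.21. Over the 36 pairs that join sets 3 and 4 with sets 5 and 6, it ran from -0.45 to 0.07 with a median of -0.12. For each of the 12 arrays the nearest of all arrays lay in the same pair of sets, and for 8 of them it also carried the same label. It was always in the same block of 8 columns, so this count says nothing of likeness across blocks. Values ran from 2.02 to 14.11 on the log2 scale, the medians of the 24 arrays from 6.71 to 6.80, and the number of arrays limits the precision.

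**Figure D1:**
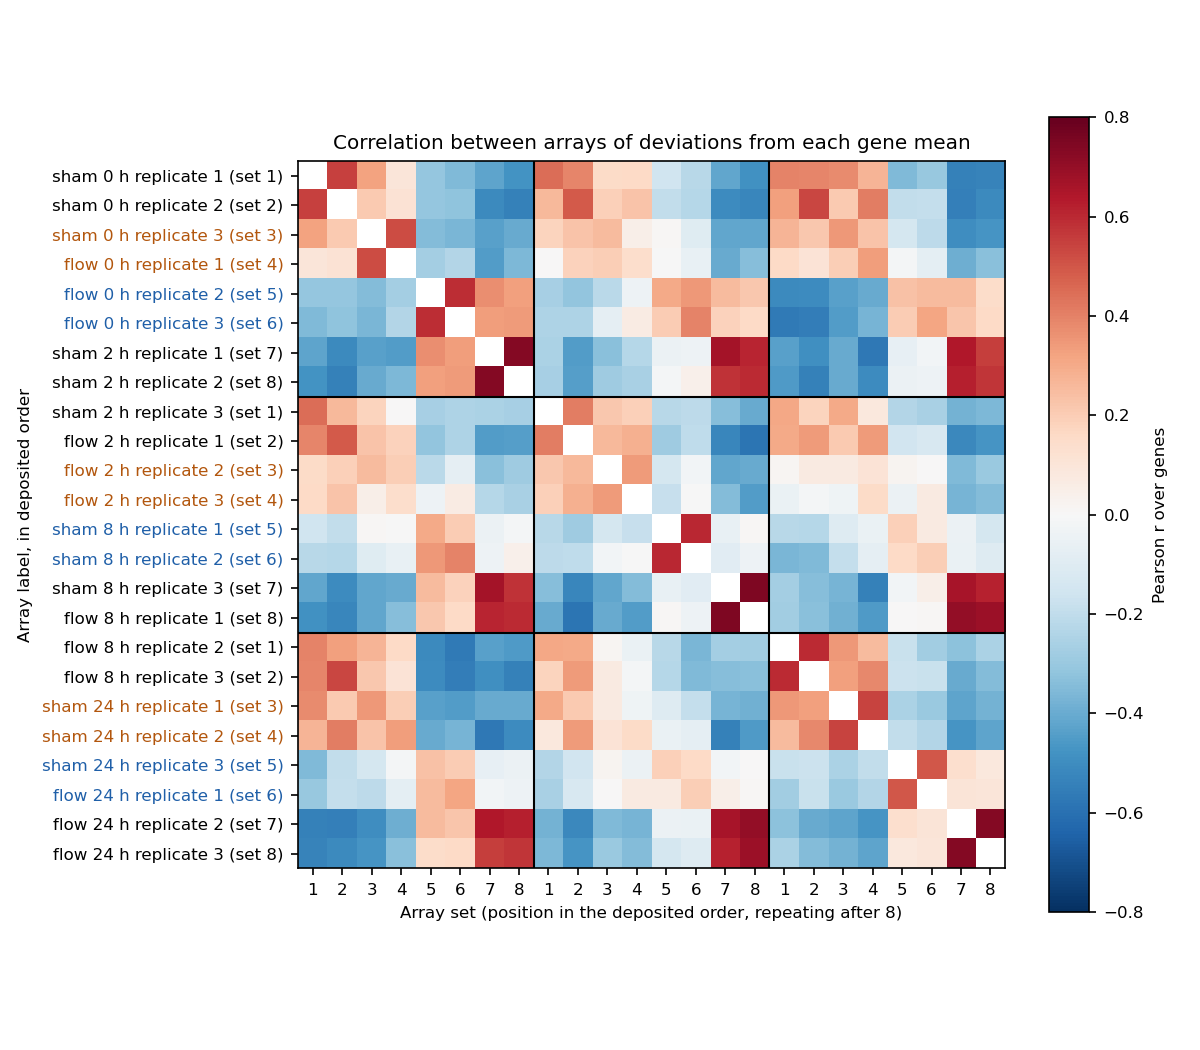
Pearson's r between each pair of the 24 arrays over 12393 genes, taken on deviations from each gene's mean, with arrays in the deposited order on both axes. Black lines mark the blocks of 8 columns, orange labels mark sets 3 and 4, and blue labels mark sets 5 and 6. The squares that join orange with blue arrays run from -0.45 to 0.07, and those within a colour from -0.03 to 0.60.

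The difference of a gene is given throughout as the mean of set 5 minus set 3 and set 6 minus set 4, on the log2 scale, where a difference of 1 is a factor of 2. Over the 12393 genes the median difference was 0.00088, and 50.3% of genes lay above 0. Differences ran from -2.02 to 1.76. All 6 values of sets 5 and 6 lay above all 6 values of sets 3 and 4 for 600 genes (4.84%) and below them for 393 genes (3.17%), together 993 (8.01%). These genes are called genes without overlap below, and the percentages are the background for the gene lists. Because the sets were chosen from these values, the counts are descriptions.

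Large differences without overlap were more often downward. At 2-fold or more, 13 genes (0.105%) lay lower in sets 5 and 6 and 4 genes (0.0323%) lay higher. With or without overlap, 24 genes (0.194%) lay lower and 6 (0.0484%) higher by this much. The 13 were Cxcl1, Rgcc, Zc3h12a, Tlr2, Pspc1, Vav3, Noct, Cirbp, Ccl7, Akr1c14, Plat, Nfkbiz and Tnfaip6. The 4 were Ifi209, Cavin2, Avil and Klra2. Of these, Akr1c14 did not reach a log2 value of 6 on any of the 12 arrays, nor did Ifi209 in sets 3 and 4. Nearest inside the 2-fold limit were Plat (-1.02), Nfkbiz (-1.005) and Tnfaip6 (-1.003) among the lower genes and Klra2 (1.01) among the higher. Just outside it were Gadd45b (-0.998), Ccl2 (-0.97) and Fosb (-0.97, below 6 on all 12 arrays), and, on the upper side, Nectin2 (0.99), Taf7l (0.99) and Il11 (0.89). With each of the 12 arrays left out in turn the lower count ran from 11 to 17 and the upper from 2 to 7. The upper count was 2 without sham 0 h replicate 3, flow 0 h replicate 2 or sham 24 h replicate 2, and 7 without flow 2 h replicate 2.

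Chemokines are secreted proteins that draw leukocytes. Cxcl1, which encodes a ligand of the neutrophil receptor CXCR2, was among the genes with the largest differences. Its log2 values were 11.12, 11.65 and 11.45 in set 3 and 11.74, 13.33 and 13.72 in set 4. In set 5 they were 10.24, 9.66 and 9.84, and in set 6 they were 10.89, 10.54 and 10.29. All 6 arrays of sets 5 and 6 lay below all 6 of sets 3 and 4, and set 4 held the highest of the 12. The difference was -1.92, or 3.79-fold, and the 6 differences between arrays of the same block ran from -3.43 to -0.85. Cxcl2, which encodes a ligand of the same receptor, had a median of 9.60 (8.40 to 12.41) in sets 3 and 4 and of 8.08 (7.55 to 8.94) in sets 5 and 6. The ranges overlapped at a difference of -2.02, the lowest of all genes, and all 6 differences within blocks lay below 0.

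Cxcl5, another ligand gene of this receptor, had a median of 10.88 (10.01 to 12.68) against 9.82 (9.34 to 10.44), with overlap and a difference of -1.30. Ccl2 and Ccl7 encode ligands of the monocyte receptor CCR2. Ccl2 had a median of 12.64 (12.38 to 13.42) in sets 3 and 4 and of 11.91 (11.10 to 12.21) in sets 5 and 6. Ccl7 had a median of 11.64 (11.39 to 12.58) against 10.96 (9.96 to 11.37). Neither gene overlapped, and the differences were -0.97 for Ccl2 and -1.04 for Ccl7. The chemokine lists as a whole lay closer to the background. Of 13 CXC chemokine genes measured, 1 (7.69%) lay lower without overlap, against 3.17% of all genes, and the list's median difference was -0.05. Of 20 CC and other chemokine genes 2 (10.0%) lay lower, with a median of -0.08. Expression of 6 of the 13 and of 13 of the 20 was below a log2 value of 6 on every array. Without dim genes the median differences were -0.32 for the CXC and -0.33 for the CC and other chemokine genes.

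The promoters of Cxcl1, Cxcl2 and Nfkbia are shown because these genes, lower together in sets 5 and 6, each hold an NF-kB motif, the letters GGGNN followed directly by TTTCC, in the 250 bases before their start. Sequences are from RefSeq, assembly GRCm38.p6, on the strand of the gene, and give the 150 bases that end just before the gene's annotated start. Capitals mark the matches of either strand.
Cxcl1, chr5:90891095-90891244, plus strand: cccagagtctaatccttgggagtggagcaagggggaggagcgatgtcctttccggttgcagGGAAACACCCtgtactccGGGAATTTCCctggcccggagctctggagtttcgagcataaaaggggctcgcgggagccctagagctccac
Cxcl2, chr5:90903749-90903898, plus strand: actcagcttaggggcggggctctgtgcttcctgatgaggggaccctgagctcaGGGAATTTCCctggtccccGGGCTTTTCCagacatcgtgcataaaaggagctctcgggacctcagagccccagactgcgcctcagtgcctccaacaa
Nfkbia, chr12:55492648-55492797, minus strand: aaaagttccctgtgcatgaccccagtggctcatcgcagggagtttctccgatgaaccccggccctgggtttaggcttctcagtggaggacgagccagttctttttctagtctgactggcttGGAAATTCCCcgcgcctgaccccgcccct
The first base of a match lay 89 and 71 bases before the start in Cxcl1, 97 and 78 in Cxcl2 and 29 in Nfkbia. These letters, read on both strands, were found in 1.41% of 32851 RefSeq promoters and in 1.65% of 27025 genes. Of 12 inflammatory genes chosen after their values were seen, 7 had a promoter in the table and 3 of these held the letters. A match describes the sequence and does not show that a factor binds it.

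**Figure D2:**
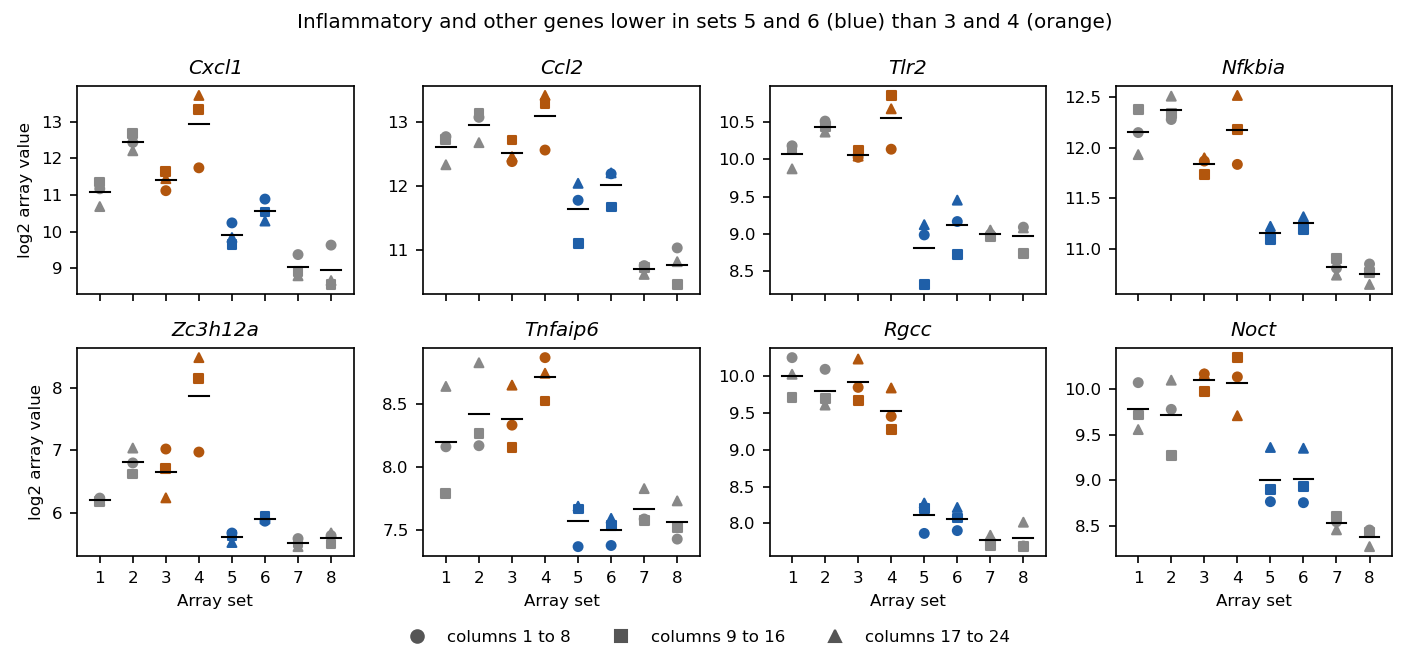
Log2 array values of 8 genes in all 24 arrays by array set, with a point for each array, a marker shape for each block of 8 columns and a black line for the mean of a set. In each panel all blue points (sets 5 and 6) lie below all orange points (sets 3 and 4). Sets 1, 2, 7 and 8 are in grey.

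Tlr2 encodes a Toll-like receptor for bacterial lipoproteins that signals to NF-kB. Its log2 values in sets 3 and 4 had a median of 10.13 (10.02 to 10.85) and in sets 5 and 6 one of 9.06 (8.33 to 9.45). The groups were 0.57 apart at their nearest arrays, and the difference was -1.34, with -2.13 to -0.91 within blocks. Cd14, which encodes a co-receptor of Toll-like receptors, also lay lower without overlap but by far less, at a median of 7.88 (7.72 to 7.94) against 8.15 (7.97 to 8.26). Of 24 genes of Toll-like receptors and innate secreted proteins, these 2 (8.33%) lay lower without overlap, against 3.17% of all genes. The median difference was 0.02. Of the 24, 12 were below a log2 value of 6 on every array, and without dim genes the median difference was 0.15.

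Genes of some NF-kB inhibitors lay lower. Nfkbia, which encodes the inhibitor IkB-alpha and is itself a target of NF-kB, had a median of 11.88 (11.74 to 12.52) in sets 3 and 4 and of 11.21 (11.10 to 11.32) in sets 5 and 6. The groups did not overlap, all 4 probe sets of the gene gave a difference of the same sign, and the difference was -0.80. Nfkbiz, which encodes a nuclear member of the inhibitor family, had a median of 10.87 (10.42 to 12.25) against 10.08 (9.86 to 10.19), and its highest value was on sham 24 h replicate 2. Relb, which encodes a subunit of the factor, had a median of 8.52 (8.30 to 8.95) against 7.96 (7.73 to 8.19). Nfkbie, a further inhibitor gene, had a difference of -0.82 at low values, with medians of 5.62 and 4.86. In all, 4 of 15 measured genes of NF-kB subunits and inhibitors (26.7%) lay lower without overlap, against 3.17% of all genes, and none higher. The list's median difference was -0.26, and 2 of the 15 lay above 0.

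Zc3h12a and Tnfaip6 are named for the size of their differences. Zc3h12a, which encodes an RNase that degrades cytokine mRNAs, had a median of 6.997 (6.24 to 8.48) against 5.78 (5.53 to 5.94) and a difference of -1.50. Tnfaip6, which encodes a hyaluronan-binding protein of inflamed tissue, had a median of 8.59 (8.15 to 8.87) against 7.57 (7.37 to 7.69) and a difference of -1.003. Neither gene's groups overlapped, and Zc3h12a was below 6 on all arrays of sets 5 and 6. Socs3, which encodes an inhibitor of signals from the IL-6 family of receptors, had a median of 10.15 (9.71 to 10.36) against 9.48 (9.19 to 9.62) and a difference of -0.68. Pim1, a kinase gene downstream of the same receptors, had a difference of -0.44 without overlap. Il11 lay in the opposite direction. This gene encodes a cytokine of the IL-6 family, and its median was 8.17 (7.44 to 8.65) in sets 3 and 4 and 9.004 (8.72 to 9.29) in sets 5 and 6, a difference of 0.89 without overlap. These 3 were the only genes without overlap among the 17 measured of the IL-6 family and its SOCS inhibitors, whose median difference was -0.03.

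Genes with other roles made up the rest of the largest downward differences. Rgcc, which encodes a regulator of the cell cycle that responds to complement, had values of 9.85, 9.67 and 10.23 in set 3 and of 9.45, 9.27 and 9.84 in set 4. In set 5 the values were 7.86, 8.20 and 8.28, and in set 6 they were 7.90, 8.07 and 8.22. The groups were 0.995 apart at their nearest arrays, and the difference was -1.63, or 3.09-fold, with -1.98 to -1.20 within blocks. Plat, which encodes tissue plasminogen activator, had a median of 8.66 (7.83 to 8.83) against 7.43 (7.03 to 7.82). Gadd45b, a stress-response gene, had a median of 9.97 (9.29 to 10.34) against 8.81 (8.70 to 9.01). Cirbp encodes a cold-inducible RNA-binding protein, and its median was 9.02 (8.84 to 9.37) against 7.95 (7.84 to 8.30). Pspc1 encodes a protein of nuclear paraspeckles, and its median was 8.999 (8.75 to 9.07) against 7.70 (7.49 to 7.93). None of these groups overlapped.

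Immediate early genes encode transcription factors that many stimuli induce within minutes and without new protein synthesis. Of 27 measured, 5 (18.5%) lay lower in sets 5 and 6 without overlap, against 3.17% of all genes, and none higher. Of the 27, 25 had a difference below 0, and the median was -0.35. The 5 were Fosb, Junb, Klf2, Klf6 and Fosl2. Junb, which encodes a partner of Fos in the factor AP-1, had a median of 8.29 (8.02 to 8.77) against 7.65 (7.45 to 7.90). The largest differences of the list, however, overlapped and rested on 2 arrays. Egr1, which encodes a zinc finger factor, was at 12.55 on sham 24 h replicate 1 and at 12.37 on sham 24 h replicate 2, whereas the other 4 arrays of sets 3 and 4 ran from 8.70 to 9.34. Sets 5 and 6 ran from 8.25 to 8.88, and the difference was -1.59. Fos was at 9.86 and 9.33 on the same 2 arrays and between 5.91 and 6.10 on the other 4, against 5.68 to 6.10 in sets 5 and 6. Sham 24 h replicate 3, the array of that label in set 5, had an Egr1 value of 8.84 and a Fos value of 5.99. So the 3 arrays of this label fell apart by array set for these genes. Of the 5 genes without overlap, Fosb, Junb and Klf6 were also highest on sham 24 h replicates 1 and 2. Klf2 and Fosl2 did not have both of these arrays as their highest. Fosb was at 5.55 and 5.48 on these 2 arrays and between 4.23 and 4.42 on the other 4 of sets 3 and 4.

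Genes of the circadian clock had 2 members without overlap of 19 measured, both lower (10.5%, against 3.17% of all genes). The list's median difference was -0.16. Bhlhe40, which encodes a repressor in the clock, had a median of 8.51 (8.39 to 9.67) against 7.96 (7.38 to 8.17). Per2, which encodes a core repressor of the clock, was below a log2 value of 6 on all but 1 of the 12 arrays, with a median of 5.61 (5.41 to 6.07) against 4.90 (4.84 to 5.04). The other probe set of Per2 gave a difference of -0.08 with overlap. Noct, a gene with a daily rhythm in many tissues, was not on that list. Its median was 10.15 (9.71 to 10.34) in sets 3 and 4 and 8.92 (8.76 to 9.36) in sets 5 and 6, a difference of -1.07 without overlap.

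Genes of cholesterol synthesis and uptake had the largest share of members without overlap of all lists. Of 26 genes listed 20 were measured, and 12 of these (60.0%) lay lower in sets 5 and 6 without overlap, against 3.17% of all genes. Only 1 of the 20, the sterol isomerase gene Ebp at 0.01, had a difference above 0. The median difference of the list was -0.52, and with each of the 12 arrays left out it ran from -0.63 to -0.42. In order of the pathway, the differences without overlap were -0.76 for Hmgcs1, which encodes HMG-CoA synthase, -0.75 for the mevalonate pathway kinase gene Pmvk, -0.83 for the isomerase gene Idi1 and -0.59 for the farnesyl diphosphate synthase gene Fdps. They were -0.62 for the squalene synthase gene Fdft1, -0.71 for the squalene epoxidase gene Sqle and -0.45 for the lanosterol synthase gene Lss. For the enzymes after lanosterol they were -0.89 for Cyp51, -0.43 for Nsdhl, -0.95 for Hsd17b7 and -0.39 for Sc5d. The 12th gene, Srebf2, encodes SREBP-2 itself and had a difference of -0.33. For Fdps only 1 of 2 probe sets had this sign.

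Hmgcs1 shows the values behind these differences. In set 3 its log2 values were 10.26, 9.45 and 10.47, and in set 4 they were 9.54, 9.22 and 10.16. In set 5 they were 9.13, 9.21 and 9.05, and in set 6 they were 9.07, 9.05 and 9.003. The highest array of sets 5 and 6 lay 0.0067 below the lowest of sets 3 and 4, and the values of sets 5 and 6 spread far less than those of sets 3 and 4 (SD 0.073 and 0.51, n = 6 each). Cyp51, which encodes lanosterol demethylase, had a median of 9.10 (8.68 to 9.38) against 8.15 (8.07 to 8.32). Hsd17b7, which encodes a reductase of the later pathway, had a median of 8.00 (7.71 to 8.50) against 7.13 (6.83 to 7.38). The nearest arrays of the groups were 0.36 apart for Cyp51 and 0.33 apart for Hsd17b7.

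The size of this difference varied between the blocks of columns. The list's median difference was -0.44 within the first 8 columns, -0.20 within the second and -0.86 within the last, where the arrays of sets 3 and 4 carry the label sham 24 h. For Hmgcs1 the 6 differences within blocks ran from -1.41 to -0.17. Msmo1, which encodes a methyl sterol oxidase, overlapped at a difference of -0.58, with 5 of 6 differences below 0, and Msmo1 was at 0.15 between the arrays labelled flow 0 h. The list also lay lower among arrays of the same label. Between arrays labelled flow 0 h, replicates 2 and 3 (sets 5 and 6) minus replicate 1 (set 4), its median difference was -0.28. Between arrays labelled sham 24 h, replicate 3 (set 5) minus replicates 1 and 2 (sets 3 and 4), it was -0.85. Most genes of the list lay lower without overlap, so both medians had to lie below 0, and only their size was free.

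**Figure D3:**
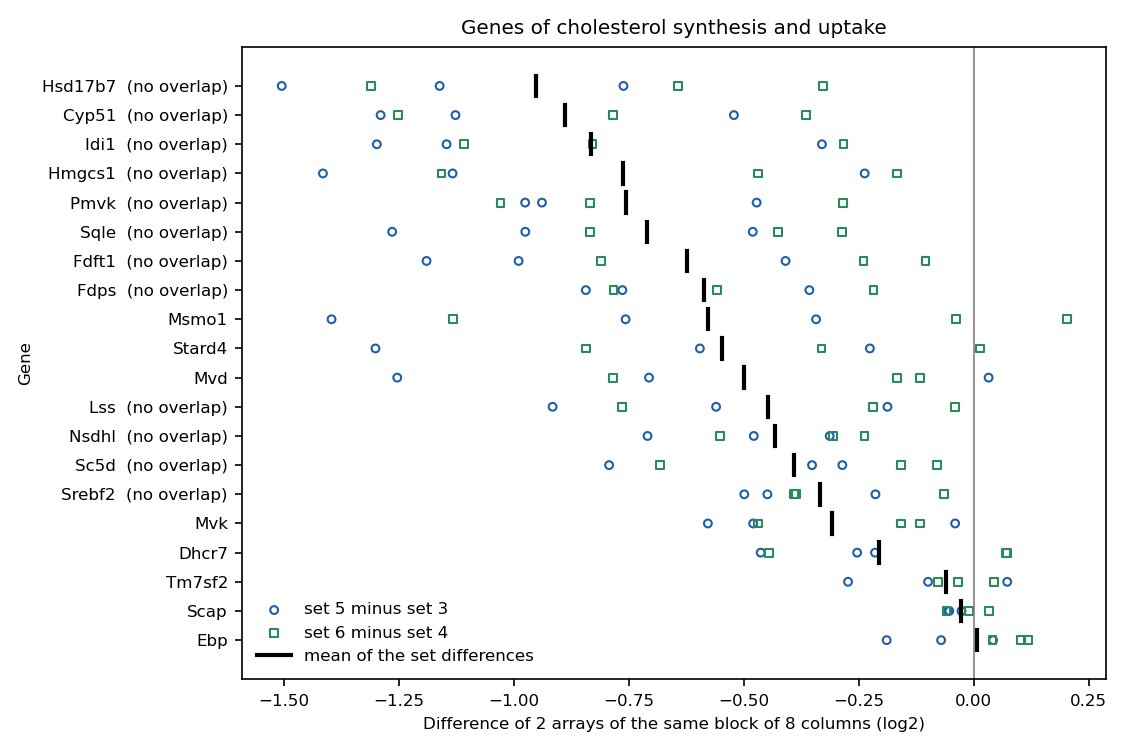
Difference between 2 arrays of the same block of 8 columns (log2) for 20 genes of cholesterol synthesis and uptake, with circles for set 5 minus set 3, squares for set 6 minus set 4 and a black line for the mean of the set differences. The genes marked as having no overlap run from -0.95 for Hsd17b7 to -0.33 for Srebf2, and their points all lie below 0.

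The promoter of Hmgcs1 is shown because it was the only one of 16 cholesterol genes in the promoter table to hold the letters TCACNCCAC of a sterol response element in the 250 bases before the start. It is from RefSeq, assembly GRCm38.p6, and capitals mark the match.
Hmgcs1, chr13:119690201-119690350, plus strand: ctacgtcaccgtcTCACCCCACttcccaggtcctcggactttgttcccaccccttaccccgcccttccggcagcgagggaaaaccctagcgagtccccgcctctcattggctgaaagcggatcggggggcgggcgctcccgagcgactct
The first base of the match lay 137 bases before the start. These letters were found on either strand in 1.05% of 32851 promoters and in 1.22% of genes. The absence of a match says only that these letters are not in that window.

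Sets 5 and 6 were the lowest of the 4 pairs of sets for cholesterol genes. For 18 of the 20 the mean of sets 5 and 6 was the lowest of the pairs, compared with 2543 of all 12393 genes. Among the 393 genes lower without overlap, it was the lowest for 220. For 10 of the 20 cholesterol genes, among these Cyp51, Idi1, Hmgcs1 and Pmvk, all 6 values lay below all other 18 arrays, whereas 62 of all genes did. Only genes lower without overlap can do so, and the 62 are all among those 393. Cyp51, for example, had a mean of 9.36 in sets 1 and 2 and of 8.58 in sets 7 and 8, both above its highest value in sets 5 and 6. Cxcl1 instead had a mean of 11.76 in sets 1 and 2 and of 8.99 in sets 7 and 8, so that sets 5 and 6 lay between. Ccl2 (12.79 and 10.73) and Nfkbia (12.26 and 10.79) had the same order, while Tlr2 was close to its level in sets 7 and 8 (8.99).

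Of 17 genes of fatty acid synthesis and desaturation, which partly share the SREBP factors, 4 (23.5%) lay lower without overlap, against 3.17% of all genes. The list's median difference was -0.10. The 4 were the desaturase genes Fads1, Fads2 and Scd1 and the acetyl-CoA synthetase gene Acss2. Fads1 had a small but even difference, at a median of 9.73 (9.68 to 9.80) against 9.35 (9.29 to 9.42), with -0.47 to -0.31 within blocks. Fads2 had a median of 8.16 (8.07 to 8.29) against 7.67 (7.40 to 7.75). Fads2 had a mean of 8.32 in sets 1 and 2 and of 8.21 in sets 7 and 8, and Fads1 one of 9.90 and 9.82.

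**Figure D4:**
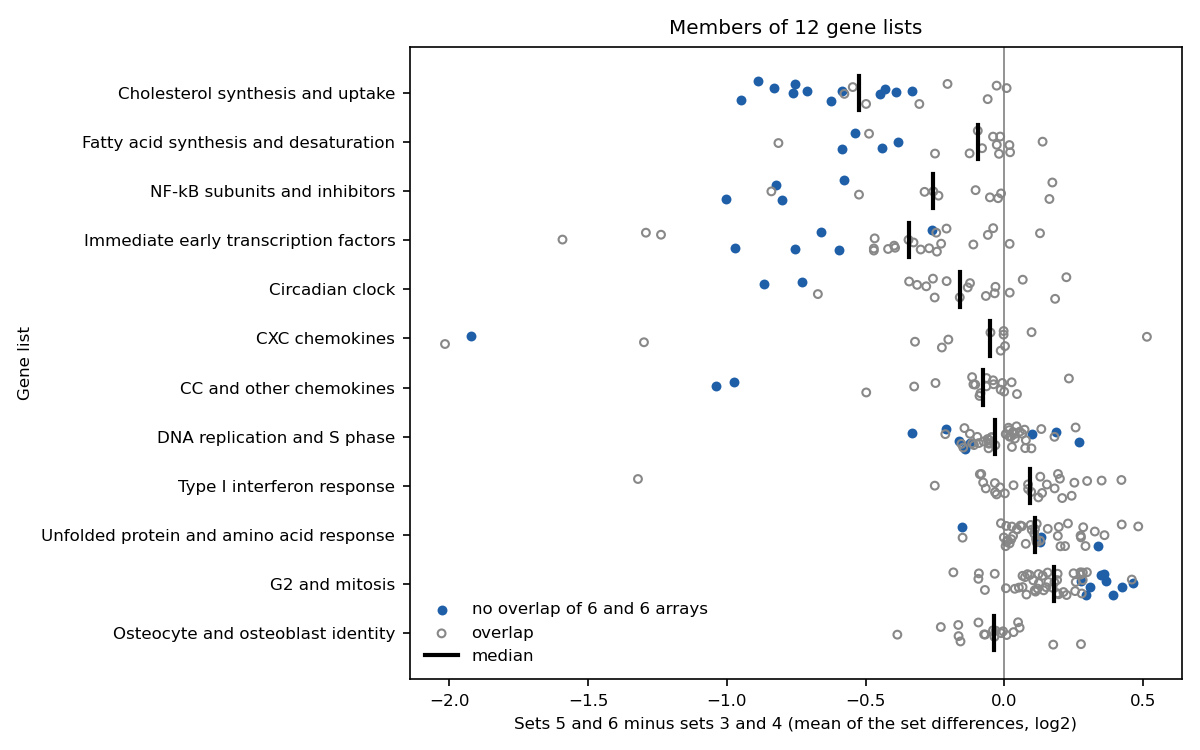
Difference of sets 5 and 6 minus sets 3 and 4 (log2) for each measured gene of 12 lists, with filled blue points for genes whose 6 and 6 values do not overlap, open points for the others and a black line for the list's median. Of the 12 lists, cholesterol genes have the lowest median (-0.52) and genes of G2 and mitosis the highest (0.18).

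Genes of G2 and mitosis lay slightly higher in sets 5 and 6. Of 52 measured, 9 (17.3%) lay higher without overlap, against 4.84% of all genes, none lay lower, and 47 had a difference above 0. The median difference was 0.18. Hmmr, which encodes a protein of the mitotic spindle, had a median of 9.12 (8.80 to 9.44) in sets 3 and 4 and of 9.64 (9.49 to 9.66) in sets 5 and 6. Its groups lay only 0.05 apart, and the difference was 0.46. The differences were 0.42 for Ect2, a gene needed for cytokinesis, 0.39 for the kinesin gene Kif2c, 0.36 for the spindle checkpoint kinase gene Bub1 and 0.36 for Dlgap5, whose protein stabilizes spindle microtubules. None of these overlapped, but for Bub1 only 1 of 2 probe sets had this sign. The other, less bright, lay lower in sets 5 and 6 without overlap, at -0.36. The list's median was 0.03 within the first 8 columns, 0.36 within the second and 0.18 within the last. The letters TTTGAA, part of the cell cycle homology region of many G2 promoters, were held on either strand by 19 of the 43 genes with a promoter in the table and by 18.3% of all genes.

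Psrc1, which encodes a further spindle protein and was not on the list, had a larger difference. Its median was 6.65 (6.34 to 6.82) against 7.47 (7.30 to 7.58), a difference of 0.82 without overlap. In sets 7 and 8 Psrc1 ran higher still, from 7.67 to 8.04. Genes of DNA replication and S phase had no common direction. Of 45 measured, 3 (6.67%) lay higher and 5 (11.1%) lower without overlap, against 4.84% and 3.17% of all genes. The median difference was -0.03. Pole2, which encodes a subunit of DNA polymerase epsilon, was at 0.27, while Chaf1b, which encodes a subunit of a chromatin assembly factor, was at -0.33.

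The genes with the largest upward differences did not form one of the listed groups. Cavin2, which encodes a coat protein of caveolae, had values of 9.26, 9.29 and 9.23 in set 3 and of 8.93, 9.17 and 9.01 in set 4. In set 5 the values were 10.12, 10.38 and 10.36, and in set 6 they were 9.98, 10.39 and 10.20. The groups were 0.69 apart, and the difference was 1.09, or 2.13-fold, with 0.86 to 1.22 within blocks. All 6 arrays of sets 5 and 6 lay above the other 18, whose highest value was 9.60, on flow 2 h replicate 1. The means were 9.36 in sets 1 and 2 and 9.44 in sets 7 and 8. The phosphatase gene Ptpn22, at 7.59 (7.18 to 7.63) against 8.31 (8.06 to 8.60), and the scramblase gene Plscr2, at 8.12 (7.84 to 8.54) against 8.98 (8.75 to 9.25), likewise lay above all other arrays. Over all genes, 56 did so, all among the 600 higher without overlap.

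Avil, which encodes the actin-binding protein advillin, had a difference of 1.08, and Ifi209, an interferon-inducible gene of the AIM2-like family, one of 1.76. Both had almost no gap, because flow 2 h replicates 2 and 3 were near the arrays of sets 5 and 6. Avil was at 9.38 and 9.33 on these 2 arrays and between 7.93 and 8.32 on the other 4 of sets 3 and 4, against 9.41 to 10.04. Ifi209 was at 5.05 and 5.25 on them and between 3.78 and 4.22 on the other 4, against 5.28 to 6.68. The size of its difference is uncertain at such low values, and its other probe set gave 0.54 with overlap. In sets 7 and 8 Avil ran higher still, from 10.56 to 10.80, and Ifi209 ran from 5.89 to 6.82. Pla2g4a, which encodes the phospholipase that releases arachidonic acid for prostaglandin synthesis, had a median of 10.09 (9.87 to 10.60) against 10.95 (10.73 to 11.27), a difference of 0.80 without overlap. In sets 7 and 8 Pla2g4a ran from 11.13 to 11.28. Ptgs2, which encodes the cyclooxygenase that uses this arachidonic acid, overlapped at a difference of -0.14, with 10.80 (9.86 to 11.38) against 10.66 (10.40 to 10.75).

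**Figure D5:**
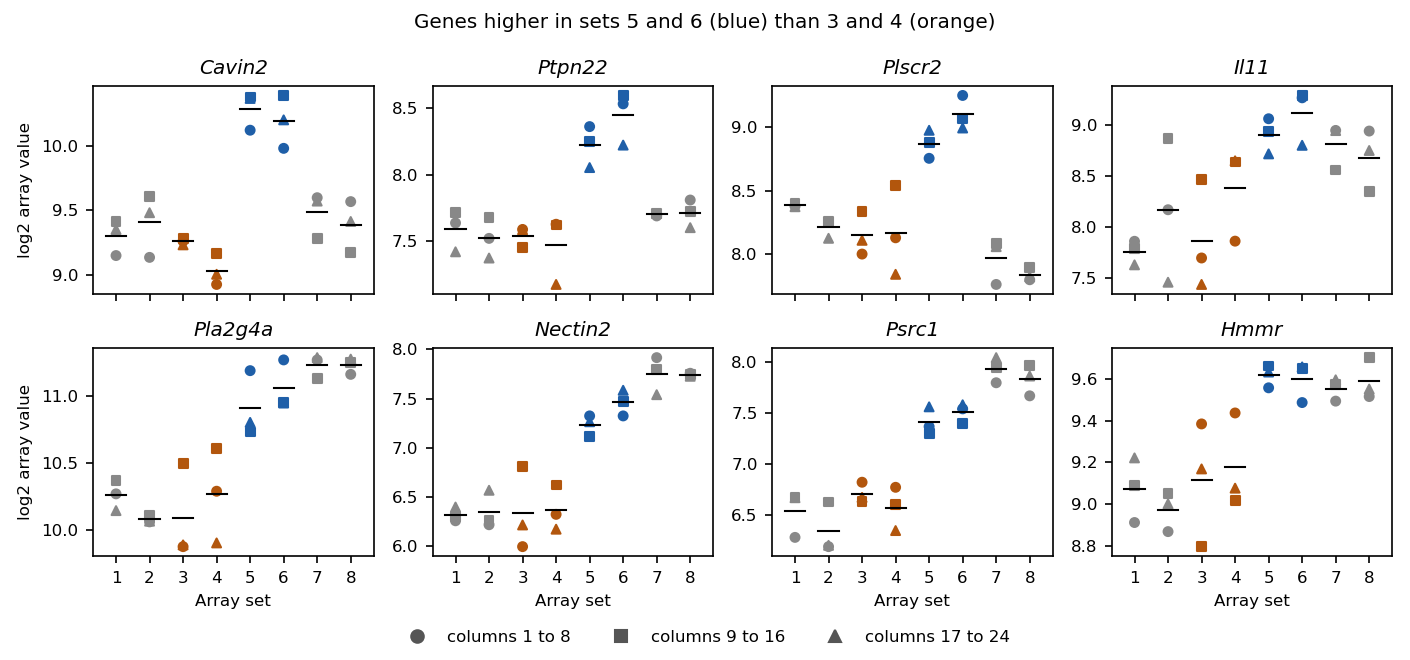
Log2 array values of 8 genes in all 24 arrays by array set, with a point for each array, a marker shape for each block of 8 columns and a black line for the mean of a set. All blue points (sets 5 and 6) lie above all orange points (sets 3 and 4). For Cavin2, Ptpn22 and Plscr2 they also lie above all grey points, which are sets 1, 2, 7 and 8.

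Genes of metallothioneins and zinc handling had 3 of 13 members (23.1%) lower without overlap, against 3.17% of all genes, and 1 higher. The median difference was -0.12, or -0.33 without dim genes. Those lower were Slc30a1, which encodes the zinc exporter of the plasma membrane (-0.73), the transporter gene Slc30a4 (-0.33) and the zinc importer gene Slc39a6 (-0.42). Slc39a6 had a median of 11.15 (11.07 to 11.29) in sets 3 and 4 and of 10.72 (10.70 to 10.81) in sets 5 and 6. The importer gene Slc39a14 lay higher by 0.31. Mt1 and Mt2, which encode small proteins that bind zinc, overlapped. Mt1 had a median of 12.94 (12.03 to 13.37) against 11.58 (11.37 to 12.22) and a difference of -1.09, and Mt2 a difference of -0.64.

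Most other lists lay nearer to the background. Of 42 genes of the unfolded protein and amino acid response, 38 had a difference above 0, but the median was 0.11. Of these 42, 3 (7.14%) lay higher without overlap and 1 (2.38%) lower, against 4.84% and 3.17% of all genes. Of 28 heat shock and chaperone genes, 3 (10.7%) lay higher and 1 (3.57%) lower, with a median of 0.03. Hspa8, which encodes a constitutive chaperone, was at 0.27 and Chordc1, which encodes a co-chaperone of Hsp90, at 0.39. No gene without overlap was found among 28 genes of the type I interferon response, whose median within blocks ran from -0.51 to 0.49. Ifnb1, the gene of the cytokine itself, had a difference of -1.32 with overlap, at 8.29 (7.37 to 9.0006) against 6.79 (6.31 to 7.59). None was found either among 42 genes of ribosome biogenesis, 32 of Wnt signaling, 26 of TGF-beta and BMP signaling, 22 of SRF and the actin cytoskeleton or 10 of EGF receptor ligands and receptors. Other single genes overlapped, among them Nos2 (-0.12), which encodes a nitric oxide synthase, Hif1a (-0.15), which encodes a subunit of a hypoxia-induced factor, and the kinase subunit gene Pik3r1 (-0.49). Another, less bright probe set of Hif1a (-0.49) and one of Pik3r1 (-0.35) lay lower without overlap.

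The osteocyte label was checked against markers. Pdpn, which encodes podoplanin of early osteocytes, had medians of 12.63 in both pairs of sets, and Gja1, which encodes the gap junction protein connexin 43, medians of 13.005 and 12.976. Dmp1, Mepe, Sost and Fgf23, markers of mature osteocytes, were below a log2 value of 6 on every array. None of 19 genes of osteocyte and osteoblast identity lay apart without overlap, and their median difference was -0.04. Of these 19, 9 were below 6 on every array. Markers of other cell types were mostly dim, except those of adipocytes. Of the macrophage markers 7 of 10 were below 6 on every array, the median difference was 0.04 (-0.16 without dim genes), 1 of 10 (Cd14, -0.26) lay lower without overlap, and their summed log2 value ran from 47.0 to 49.1 in sets 3 and 4 and from 48.0 to 48.6 in sets 5 and 6. The common leukocyte gene Ptprc was at means of 3.20 and 3.27. Of the endothelial markers 7 of 9, of the epithelial markers 7 of 8 and of the muscle markers 5 of 8 were below 6 throughout, and none of these lists had a gene without overlap. Of the 6 adipocyte markers measured only 2 were below 6 on every array, and 5 had a difference below 0. Their median difference was -0.28, or -0.47 without dim genes. The 6 had a summed value of 39.2 to 40.1 in sets 3 and 4 and of 37.7 to 38.1 in sets 5 and 6. Of these Fabp4, a fatty acid carrier gene, was at -0.59 without overlap, while Adipoq was at means of 3.92 and 3.71. Their part in the differences was not tested. In bulk RNA, fewer cells of a type and less RNA per cell cannot be told apart.

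Signs of RNA quality had overlapping ranges in both pairs of sets. The log2 value of the 3′ minus the 5′ control probe set of Gapdh ran from -0.196 to -0.133 in sets 3 and 4 and from -0.173 to -0.101 in sets 5 and 6. For beta-actin it ran from 0.138 to 0.203 and from 0.150 to 0.242.

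Arrays of the same label also fell apart by array set for single genes. Between arrays labelled flow 0 h, replicates 2 and 3 minus replicate 1, the difference was -1.18 for Cxcl1, -1.05 for Tlr2, -1.57 for Rgcc, -0.80 for Cyp51 and 1.12 for Cavin2. Between arrays labelled sham 24 h, replicate 3 minus replicates 1 and 2, it was -2.74 for Cxcl1, -1.23 for Tlr2, -1.76 for Rgcc, -1.26 for Cyp51 and 1.24 for Cavin2. Each of these has the sign of the difference between the pairs of sets. That sign was fixed in advance, because these 5 genes have no overlap between the pairs of sets. As each compares 3 arrays, they are values with no test.

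The labels themselves had no part in the choice of the sets and were tested within the same 12 arrays. Labelled flow minus sham, 6 arrays against 6 with array set as a term, gave no gene at an adjusted p under 0.05 in limma (Benjamini-Hochberg over 12393 genes). At an unadjusted p under 0.05 there were 1452 genes (11.7%). Among these arrays most labelled 0 h are flow, most labelled 24 h are sham, all labelled 2 h are flow and all labelled 8 h are sham. The fit has no term for time or block, so the flow label cannot be fully told apart from them. The smallest adjusted p in limma was 0.204, for Tmem205, at 0.26 (SE 0.039) higher in flow, among others. Cxcl1 differed by -0.07 (SE 0.31, limma adjusted p = 0.953) and Hmgcs1 by -0.43 (SE 0.15, limma adjusted p = 0.319). Cavin2 differed by -0.12 (SE 0.073, limma adjusted p = 0.567). With each array left out in turn no gene was called, except that 56 were called without sham 24 h replicate 3, 52 higher in flow and 4 lower.

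Labelled 24 h minus 0 h, 4 arrays against 4 with array set as a term, likewise gave no gene at an adjusted p under 0.05 in limma, with 1354 genes (10.9%) at an unadjusted p under 0.05. In these arrays 0 h is the first block of columns and 24 h the last, so label and block cannot be told apart. The smallest adjusted p in limma was 0.0651, for Sart3, which encodes a recycling factor of the spliceosome, at -0.68. Next was Cenpe, which encodes a kinetochore motor, at -0.84 (limma adjusted p = 0.0736). Rgcc differed by 0.37 (SE 0.045, limma adjusted p = 0.0981). With trend and robust moderation limma called 31 genes, 5 higher at 24 h and 26 lower, and with the filter on dim genes 1.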

How the data were processed

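RNA of MLO-Y4 cells was measured on 24 Affymetrix arrays, 12 of which are compared here. The values deposited by the authors are on the log2 scale. Per the submitters' processing notes they were made with RMA, which corrects background, equalizes the distributions of the arrays and combines the probes of a probe set. No version is given in the sources used here. The values were used as deposited and carry no counts. RMA makes the arrays' distributions alike, so differences are relative to the other genes of an array.

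Of 22690 probe sets, 20380 carried 1 gene symbol in the platform annotation, 691 had several and 64 were control probes. A gene's values are those of the probe set whose mean over the 24 arrays was highest, which was a choice for 4956 of 12393 genes. Python 3.11.15, pandas 2.3.3, numpy 2.4.6 and matplotlib 3.10.9 were used for the sets. Labels were tested with limma 3.58.1 in R 4.3.3 (lmFit and eBayes with array set as a term), and the fit was tested on simulated data. The alternatives were centring, quantile normalization again, leaving out dim genes (7971 genes reached a log2 value of 6 in 3 arrays), averaging the probe sets of a gene, counting every probe set, other thresholds, single blocks and sets, replicate block, trend and robust moderation, array weights and each array left out.

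Named genes were up to 15 in each direction with the largest difference without overlap, at a mean of at least 6 in the higher pair of sets. Ifi209 passed this limit only through sets 5 and 6, and Zc3h12a only through sets 3 and 4. Named too were up to 5 members without overlap of each list, or else its most different member. Further genes were taken from the paper's text or chosen here for the gene families and pathways it mentions. The 3 genes of smallest p in each label test and the 3 genes nearest to the 2-fold limit on each side were also named. The text gives some of these. Others, such as Fos, Mt1, Akr1c14 and further cholesterol genes, were named after their values were seen. The sets, lists and rules were chosen with earlier results of these data known. No 2 arrays were identical. No probe set with 1 symbol was found for Lrrc17, Il17f, Prkaa1 or Prkaa2.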

Additional observations from a re-analysis of the deposited data

Results flagged for a closer look

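Among 184 groups of 6 array values (92 genes in each pair of sets), 2 held an array whose gap to its nearest neighbour relative to the group's range exceeded Dixon's critical value for 6 samples, and chance alone gives about 1 in 20 groups. Klf2, which encodes a transcription factor that shear stress induces in endothelial cells, had its highest value in sets 3 and 4, 8.59, on sham 24 h replicate 2, and the next was 7.97. Bhlhe40, the clock repressor gene, had its highest value in sets 3 and 4, 9.67, on sham 24 h replicate 1, and the next was 8.77.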

How the results depend on the processing

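No named gene whose groups did not overlap changed sign under any alternative run, while Ebp, Gja1, Pdpn, Ptgs2, Nos2, Lif and Msmo1, whose groups overlap, did under some. For genes without overlap, leaving out arrays or taking single blocks, single sets or 1 label could not change the sign. Only centring, quantile normalization again and the mean of all probe sets could have done so in principle. Centring and quantile normalization again moved list medians little. The mean of all probe sets can change only genes with several probe sets. The constant signs were therefore largely fixed in advance. The counts at 2-fold without overlap (4 higher and 13 lower in sets 5 and 6) were 3 to 4 and 11 to 12 with centring, quantile normalization again, the filter on dim genes or the mean of all probe sets. They were 5 and 21 over all probe sets, and 19 and 71 at 1.5-fold. Within the first, second and last block of 8 columns they were 28 and 42, 9 and 42, and 26 and 62, where only 2 arrays face 2, so that fewer values need to lie apart. They were 6 and 22 for set 5 minus set 3 and 5 and 16 for set 6 minus set 4. With each array left out they ran from 2 to 7 and from 11 to 17. Shifts of gene values were set against the SD of the gene's 6 differences between arrays of the same block. Of 1104 gene values with 1 array left out, 1104 moved by less than this SD. So did 356 of 362 under another normalization, filter or probe set rule, 395 of 460 within blocks or single sets and 143 of 184 within 1 label. A single array left out can move a difference only a little, so the count of 1104 was nearly fixed in advance. For the labels, flow minus sham called 0 genes in limma (1452 at an unadjusted p under 0.05), and 0 in every other fit but 2. It called 1 with the replicate block, and 0 to 56 with each array left out, 56 without sham 24 h replicate 3. The cause was not tested. Labelled 24 h minus 0 h called 0 in limma (1354 at an unadjusted p under 0.05), 0 with the replicate block, 1 without array set as a term, 1 with the filter on dim genes, 31 with trend and robust moderation, 17 at an adjusted p under 0.1, and 0 in the remaining fits. The study's methods call the sham controls paired without tying them to replicate numbers. The deviations of same-numbered flow and sham arrays from their label means correlated at -0.346 to 0.192 over the 24 arrays. Since a label mixes array sets, this does not show whether the numbers pair the samples.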
